A study of Mus musculus with 6 samples.

Results

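The gp130 family of cytokine signals was followed from ligand to transcription factor in RNA from mouse glomeruli, the filtering units of the kidney. The set comprised 10 genes chosen by symbol: the cytokines Il6, Lif and Osm, the receptor chains Il6st, Il6ra, Lifr and Osmr, the kinases Jak1 and Jak2, and Stat3. All 10 were found among the 24035 named rows of the deposited table, and 9 of them passed the expression filter, a mean of at least 0.5 RPKM (reads scaled by gene length and library depth) over the 6 libraries. Il6 was the gene that did not pass. Lif passed only through its knockout libraries.

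Cytokines of this family signal through receptor complexes that hold the shared chain gp130, the product of Il6st, mostly with other chains that serve only some of the ligands. Janus kinases bound to the receptors phosphorylate them and STAT3, which enters the nucleus and induces genes that include its own inhibitor Socs3. In the kidney the pathway is known for acute-phase gene induction after injury, and STAT3 activation has been described in podocytes in glomerular disease.

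The 3 control libraries came from Klf4 fl/fl mice and the 3 knockout libraries from Podocin-Cre Klf4 fl/fl mice. All mice were FVB/N, and every animal, controls included, carried the floxed alleles. This Cre transgene is active in podocytes, so the other glomerular cells keep the gene. No group carried Cre alone, and the labels give no age. They do not say whether each library is 1 animal, so p-values reflect only how far these libraries spread. Values of single libraries are listed below in the order of replicates 1 to 3.

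Counted reads ranged from 38936993 to 58272424 per library, and log2 values correlated at 0.969 to 0.981 within and 0.891 to 0.949 between groups. Klf4 stood at 38.5 ± 15.0 RPKM in controls and 37.0 ± 6.62 RPKM in knockouts (SD, n = 3; limma adjusted p = 0.979). The labelled deletion is restricted to podocytes, and no source used here names the deleted exons, so this value is no check of the genotype. The tissue's marker genes were present in all libraries. Summed podocyte markers (11 genes, 8 of them lower) spanned 2017 to 3423 RPKM in controls and 621 to 1293 RPKM in knockouts. Podxl, the podocyte sialomucin, and Synpo, an actin-associated podocyte protein, fell by 1.43 and 1.96 on the log2 scale (limma adjusted p = 0.0459 and 6.98e-03). The Podxl call was lost in 8 of 15 alternatives, among them those without each single library except knockout replicate 3 (adjusted p up to 0.180), and the Synpo call in none. Leukocyte markers (15 genes in the table, 9 of 12 tested higher) spanned 87.5 to 106 RPKM against 414 to 988 RPKM, with Cd74 and Lyz2 the most abundant, and 1 of the 9, Itgax, passed the filter only through its knockout libraries. The neutrophil markers S100a8 and S100a9 of the same list lay the other way, below controls in every knockout library (log2 changes of −1.76 and −1.46), and were lower at an unadjusted p under 0.05 but not called (limma adjusted p = 0.110 and 0.156). Parietal epithelial markers (5 of 6 higher) spanned 49.4 to 59.4 RPKM against 166 to 302 RPKM, with Cp and Cldn1 the most abundant. Mesangial markers (Sfrp2, Ptn and Art3 lower of 6, with Sfrp2 and the uncalled Itga8 the most abundant) spanned 938 to 1405 RPKM against 461 to 703 RPKM, and endothelial markers (Plat and Emcn the most abundant) 3204 to 3903 RPKM against 1509 to 2775 RPKM. Of the 8 endothelial markers, limma called 0, with 5 lower at an unadjusted p under 0.05 and 1 lower by voom. The groups overlapped for the sums of proximal tubule markers (Slc5a12 called higher of 8, with the uncalled Slc34a1 and Pck1 the most abundant) and of dissociation stress genes (Atf3 and Ier3 higher of 9, with the uncalled Dusp1 and Jun the most abundant). They also overlapped for summed distal nephron markers (439 to 1216 RPKM against 1002 to 2654 RPKM, the uncalled Umod and Aqp2 the most abundant), of which limma called 1 of 9 higher, Cldn16, with 6 higher at an unadjusted p under 0.05 and a median log2 change of 1.45. No marker in the table was at 0 in all libraries, and the lymphocyte markers Cd3e, Cd79a and Ms4a1 were below the filter. In such bulk tissue, fewer cells of a type and less RNA per cell cannot be told apart.

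Of the 9 tested genes, Lif, Osmr and Stat3 were higher in knockout glomeruli, Lifr was lower, and Osm, Il6st, Il6ra, Jak1 and Jak2 did not pass. The test was limma on log2(RPKM + 0.5) with Benjamini-Hochberg adjustment over all 13912 genes tested, two-sided, at 0.05. By this rule 9.98% of all tested genes were higher and 3.48% lower. The libraries of the groups did not overlap for 5 of the 9 genes (Lif, Osmr and Stat3 above, Lifr and Il6ra below), where 35.1% of all tested genes did not overlap (23.7% with knockouts above and 11.4% below). These genes were chosen with results of the data known, and Lif entered the 9 only through its knockout libraries. The counts are thus a description.

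**Figure D1:**
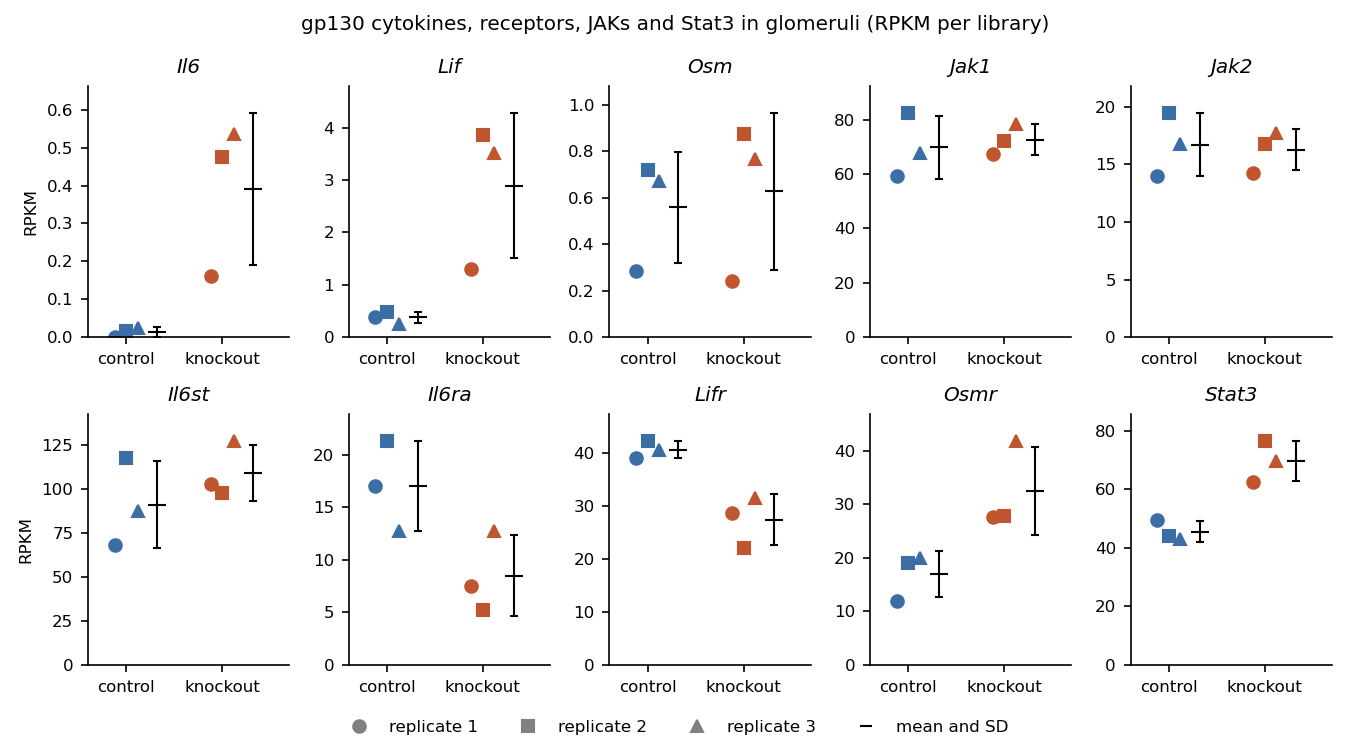
RPKM (linear axis from 0) of each of the 10 genes in the 3 control (blue) and 3 knockout (orange) libraries, with symbols for the replicate number and the mean and SD in black. Il6, Lif, Osmr and Stat3 lie higher in every knockout library than in every control, Il6ra and Lifr lie lower, and the groups overlap for Osm, Jak1, Jak2 and Il6st.

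Since the deleted factor belongs to the KLF proteins, which bind CACCC-type sequences, the 250 bases before the start site were read for the higher genes from the RefSeq promoter table (GRCm38.p6). They are shown 5′ to 3′ on the strand of the gene, for the 3 genes that lay above controls in all knockout libraries and held a match, with CCACCC or its reverse complement GGGTGG in capitals. The Il6 window is chr5:30012864-30013113 (plus strand), the Lif window chr11:4257318-4257567 (plus strand) and the Stat3 window chr11:100939541-100939790 (minus strand). The starts used for Stat3, Osmr, Jak1 and each Lifr window lie inside the outer limits of the annotated genes.
Il6: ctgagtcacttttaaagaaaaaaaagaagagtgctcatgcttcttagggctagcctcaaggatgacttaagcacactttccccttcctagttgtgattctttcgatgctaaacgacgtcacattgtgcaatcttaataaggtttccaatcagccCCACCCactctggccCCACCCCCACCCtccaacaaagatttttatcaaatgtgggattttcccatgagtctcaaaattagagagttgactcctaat
Lif: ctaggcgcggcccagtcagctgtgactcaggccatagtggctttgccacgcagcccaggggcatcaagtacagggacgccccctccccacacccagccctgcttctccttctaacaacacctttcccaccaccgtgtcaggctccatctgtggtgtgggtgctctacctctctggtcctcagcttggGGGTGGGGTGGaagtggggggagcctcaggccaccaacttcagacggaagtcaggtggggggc
Stat3: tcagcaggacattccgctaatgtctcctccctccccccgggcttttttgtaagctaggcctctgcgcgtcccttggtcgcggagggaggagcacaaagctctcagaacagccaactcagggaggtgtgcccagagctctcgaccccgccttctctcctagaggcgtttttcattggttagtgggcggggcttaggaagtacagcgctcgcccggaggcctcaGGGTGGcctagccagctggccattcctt
The Il6 window held 3 matches, at −96, −81 and −75 from the start site. Lif held 2 that overlap by 1 base, at −63 and −58, and Stat3 held 1, at −28. Osmr, the other gene above controls, held none. The table gave windows for 9 of the 10 genes (not Osm), 10 windows in all since Lifr has 2. Either form was in 5 of these 10 windows (also Il6st and 1 of the Lifr windows) and in 28.1% of all 32851 windows in the table. The STAT consensus TTCNNNGAA, which reads the same on both strands, was in 0 of the 10 windows and in 7.02% of all. A match is a string of letters and not a bound site.

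Among the ligands, Lif was higher and Il6 appeared in knockout libraries at low levels, while Osm showed no difference beyond its spread. Lif (chromosome 11, 4257568 to 4272514) encodes leukaemia inhibitory factor. Control libraries held 0.386, 0.482 and 0.260 RPKM of it and knockout libraries 1.30, 3.87 and 3.51 RPKM. Every knockout library was above every control, and knockout replicate 1 was the lowest of its group. The group means were 0.376 ± 0.111 and 2.89 ± 1.39 RPKM, a 7.69-fold difference (log2 change 1.86, SE 0.34, limma adjusted p = 0.0157). At this level the pseudocount holds the log2 change below the fold of the means, and voom gave 2.82 (SE 0.58, voom adjusted p = 0.0219). The call was lost without knockout replicate 2 (log2 change 1.63, limma adjusted p = 0.0600).

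Il6 (chromosome 5, 30013114 to 30019975), the interleukin that gave the family its first name, was close to undetected in controls. Its reads numbered 0, 1 and 1 in the control libraries against 8, 21 and 34 in the knockouts. That is 0, 0.0175 and 0.0236 RPKM against 0.163, 0.474 and 0.537 RPKM, with no overlap. Summed per group, 2 reads stood against 63, a depth-scaled ratio of 28.8 with an exact conditional 95% interval of 7.66 to 243, which covers counting error only. An exact permutation test on the RPKM values gave a two-sided p of 0.1, the smallest that 3 against 3 libraries allow. With no expression filter limma called Il6 higher (log2 change 0.77, SE 0.17, adjusted p = 0.0464). At this level the pseudocount holds down both the change and the spread between libraries. No other pseudocount was tried for Il6.

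Osm (chromosome 11, 4236785 to 4241026), which encodes oncostatin M, lies beside Lif with 16541 bases between the genes. It stood at 0.284, 0.719 and 0.673 RPKM in controls and at 0.243, 0.875 and 0.765 RPKM in knockouts. The lowest library of each group was replicate 1, and the groups overlapped throughout. The log2 change was 0.069 (95% interval −0.64 to 0.78, limma adjusted p = 0.905), and its sign turned in 5 of the 14 alternatives that kept the gene. Its reads summed to 144 in controls and 174 in knockouts, a depth-scaled ratio of 1.11 (exact conditional 95% interval 0.882 to 1.39, counting error only), so the wider limma interval holds the spread between libraries as well.

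The receptor chains moved in different directions. Osmr, the oncostatin M receptor, rose and Lifr, the receptor chain of LIF, fell, although the pair lie 215641 bases apart on chromosome 15. Il6st, which encodes the shared chain gp130, did not pass, and Il6ra, the private chain for interleukin 6, had the largest negative log2 change of the set without passing.

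Osmr (chromosome 15, 6813568 to 6874968) stood at 12.0, 19.0 and 20.0 RPKM in controls and reached 27.7, 27.8 and 41.9 RPKM in knockouts. The lowest knockout was above the highest control, and knockout replicate 3 stood apart from the other two. The difference was 1.91-fold (log2 change 0.92, SE 0.24, limma adjusted p = 0.0459). This call was close to the threshold: it was lost without each single library in turn, under both other scalings, with either other filter and with no trend (adjusted p 0.0459 to 0.105 over all fits), while the log2 change stayed between 0.70 and 1.05.

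Lifr (chromosome 15, 7090610 to 7197489) stood at 39.0, 42.3 and 40.5 RPKM in controls, a narrow range. The knockout values were 28.7, 22.0 and 31.5 RPKM, all below the controls, with replicate 2 the lowest. The mean went from 40.6 ± 1.64 to 27.4 ± 4.87 RPKM (log2 change −0.57, SE 0.15, limma adjusted p = 0.0474). This call too was lost in 11 of 15 alternatives, those without each single library except knockout replicate 3 among them (adjusted p 0.0313 to 0.148 over all fits, log2 change −0.70 to −0.43).

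Il6ra (chromosome 3, 89869324 to 89913196) stood at 17.0, 21.3 and 12.7 RPKM in controls and at 7.50, 5.19 and 12.7 RPKM in knockouts. The groups met at their edges, with control replicate 3 only just above knockout replicate 3. The means were 17.0 ± 4.31 and 8.47 ± 3.85 RPKM, 2.01-fold apart, and the difference did not pass (log2 change −1.02, SE 0.32, 95% interval −1.77 to −0.28, limma adjusted p = 0.0754). Without knockout replicate 3 it passed (log2 change −1.35, limma adjusted p = 0.0199).

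Il6st (chromosome 13, 112464070 to 112506860) was the highest gene of the set in either group. Its values were 68.5, 118 and 87.8 RPKM in controls and 103, 97.7 and 128 RPKM in knockouts, and they overlapped. The log2 change was 0.28 (95% interval −0.22 to 0.79, limma adjusted p = 0.423).

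Set against one another within each library, which removes any scaling between libraries, the receptor chains shifted in relative level. The ratio of Osmr to Lifr RPKM was 0.308, 0.449 and 0.494 in controls, and 0.967, 1.26 and 1.33 in knockouts. Lifr was thus the higher chain in all controls and in knockout replicate 1, and Osmr the higher chain in the other two knockouts. The ratio was 2.88-fold higher in knockouts on the log scale. Relative to Il6st, Osmr went from 0.161 to 0.228 in controls to a range of 0.270 to 0.329 in knockouts. Lifr went the other way, from a range of 0.359 to 0.569 to one of 0.225 to 0.279. Il6ra ranged from 0.145 to 0.249 of Il6st in controls and from 0.0531 to 0.0996 in knockouts, a 2.57-fold lower ratio. None of these 4 ratios overlapped between groups, and each had an exact permutation p of 0.1, the smallest possible, also after Benjamini-Hochberg adjustment over the 4. For Osmr over Lifr this outcome was fixed, since both genes already separated the groups, in opposite directions. The other ratios share Il6st, and each sets over it a chain whose groups did not overlap. The ratios are thus not evidence separate from the single genes. These are ratios of RNA levels per length and say nothing of receptor protein.

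**Figure D2:**
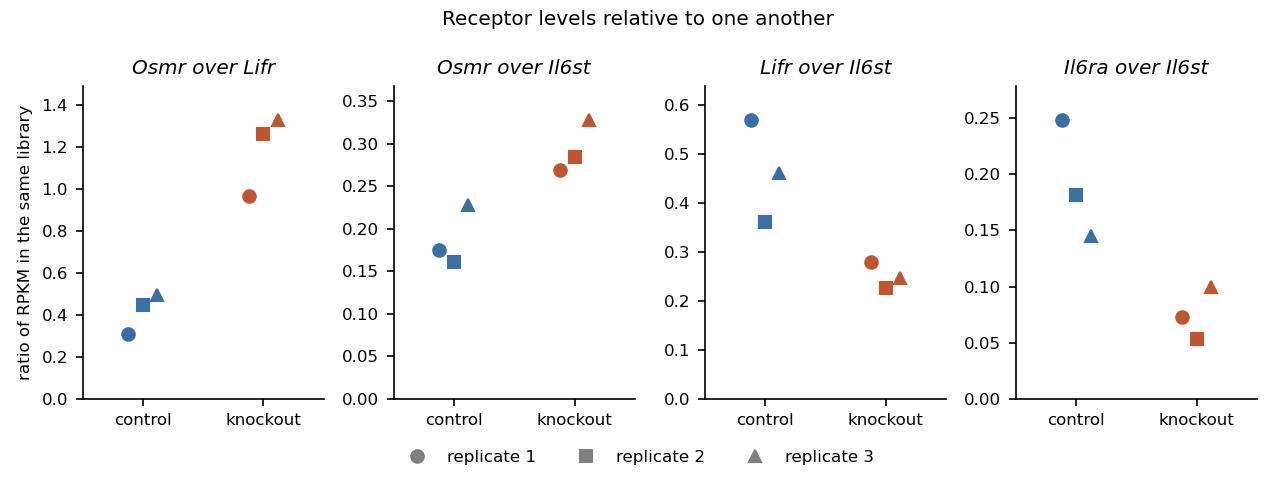
Ratio of the RPKM of 2 receptor chains in the same library (linear axis from 0), for control (blue) and knockout (orange) libraries, with symbols for the replicate number. Osmr over Lifr runs from 0.308 to 0.494 in controls and from 0.967 to 1.33 in knockouts, and Il6ra over Il6st lies lower in every knockout.

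Neither kinase passed, at an adjusted or an unadjusted p under 0.05 or by voom. Jak1 (chromosome 4, 101151974 to 101265282), which couples to gp130, stood at 59.4, 82.4 and 67.6 RPKM in controls and at 67.2, 72.0 and 78.5 RPKM in knockouts. Jak2 (chromosome 19, 29251803 to 29313095) stood at 13.9, 19.5 and 16.7 RPKM against 14.3, 16.8 and 17.7 RPKM. Groups overlapped for both, with log2 changes of 0.066 (95% interval −0.29 to 0.43, limma adjusted p = 0.808) and −0.032 (−0.40 to 0.33, adjusted p = 0.915). The sign of each turned in 2 of 15 alternatives. RefSeq places Raver2, an RNA-binding protein gene, in overlap with Jak1, and it was lower (15.3 ± 5.52 to 4.64 ± 2.46 RPKM, log2 change −1.66, SE 0.40, limma adjusted p = 0.0350; lost in 6 of 15 alternatives). The strand setting is not stated, so reads in the shared stretch cannot be told apart.

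Stat3 (chromosome 11, 100886806 to 100939594), the transcription factor at the end of the chain, was higher. The control libraries had 49.7, 44.0 and 43.0 RPKM, the knockouts 62.6, 76.6 and 69.6 RPKM. The groups were well apart relative to the spread within them. The mean rose from 45.5 ± 3.60 to 69.6 ± 6.97 RPKM, 1.53-fold (log2 change 0.60, SE 0.13, 95% interval 0.30 to 0.91, limma adjusted p = 0.0249). Without control replicate 2 or 3 or knockout replicate 2 the log2 change was 0.58, 0.56 and 0.53 and the adjusted p 0.0651, 0.0798 and 0.107.

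**Figure D3:**
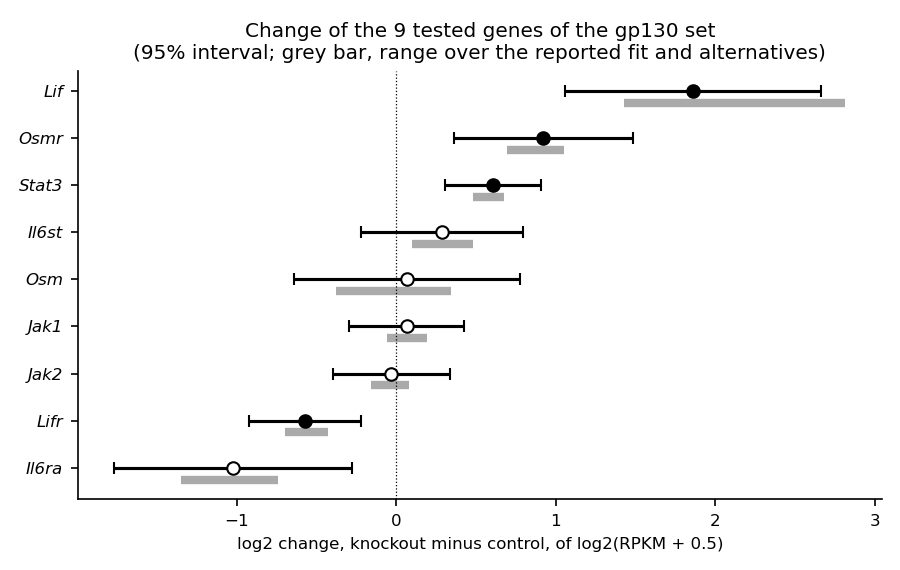
Log2 change (knockout minus control, on the log2(RPKM + 0.5) scale) of the 9 tested genes, with the 95% interval from limma; filled points passed at an adjusted p of 0.05, and grey bars give the range over the reported fit and its alternatives. Lif, Osmr, Stat3 and the uncalled Il6st lie to the right of 0 and Lifr and the uncalled Il6ra to the left over the whole bar.

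The order of levels differed between the groups in the ranks of some receptor and ligand genes and of Jak2. In controls it ran Il6st, Jak1, Stat3, Lifr, Il6ra, Osmr, Jak2, Osm, Lif and Il6. Il6ra, Osmr and Jak2 followed one another with each mean within 1.02-fold of the next, and their ranges overlapped. The ranges of Il6st and Jak1 also overlapped, although Il6st was the higher in all 3 control libraries. Those of Osm and Lif overlapped too, with Osm the higher in 2 of the 3. In knockouts the order ran Il6st, Jak1, Stat3, Osmr, Lifr, Jak2, Il6ra, Lif, Osm and Il6. There the ranges of Jak1 and Stat3, of Osmr and Lifr and of Osm and Il6 overlapped. Jak1 was above Stat3 and Osmr above Lifr in 2 of the 3 knockout libraries, and Osm above Il6 in all 3. Il6st lay at the 95.5th percentile of tested genes in controls and Stat3 at the 87.7th, whereas Lif lay at the 2.50th in controls and the 20.0th in knockouts.

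Knockout replicate 2 was extreme both for several of these genes and for cell type markers. It had the highest Stat3 and Lif and the lowest Lifr and Il6ra of all 6 libraries, and also the highest summed leukocyte markers (988 RPKM) and parietal markers (302 RPKM) and the lowest summed podocyte markers (621 RPKM). Osmr, Il6 and Il6st were highest in knockout replicate 3, whose leukocyte and parietal sums (591 and 195 RPKM) lay between those of the other two knockouts and whose podocyte sum (1293 RPKM) was the nearest of the 3 to controls. The part of these markers in the differences was not tested.

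Beyond the 10 genes, 56 genes in 6 lists cover other parts of the pathway. Of 49 tested, 12 were higher and 0 lower, where 9.98% of all tested genes were higher and 3.48% lower. These shares also belong beside the counts of the single lists below. The median log2 change was 0.35, beside 0.097 for all tested genes. By limma 1 was lower at an unadjusted p under 0.05, and voom called 12 higher and 0 lower. The lists of ligands, negative regulators and targets held all 12.

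Among the other gp130 ligands, 1 of 3 tested was higher. Clcf1, which encodes cardiotrophin-like cytokine factor 1, stood at 5.53, 6.00 and 5.27 RPKM in controls and at 17.2, 29.9 and 28.8 RPKM in knockouts. It had the highest mean of the listed ligand genes in either group and rose 4.52-fold (log2 change 2.04, SE 0.22, limma adjusted p = 2.87e-03), a call kept in all 15 alternatives. Knockout replicate 1 was the lowest of its group for Lif, Il6 and Clcf1 alike. Il11 and Ctf1 did not pass (log2 changes of 0.76 and 0.35), and Cntf, Ctf2, Il27 and Ebi3 were below the filter.

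The other receptor chains gave 0 calls among 3 tested by limma, with 1 lower at an unadjusted p under 0.05 and 0 by voom. Il11ra1, the interleukin 11 receptor, had a log2 change of −0.40, Cntfr, which binds CLCF1 and CNTF, −0.25, and Il27ra −0.034. Il31ra, the gene next to Il6st, was below the filter and Il11ra2 was listed at 0 in all libraries. The sheddases Adam10 and Adam17, which release receptors such as IL-6R from the membrane, had log2 changes of 0.42 and 0.0063. Limma called 0 of these 2, with 1 higher at an unadjusted p under 0.05 and 0 by voom.

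Other JAK and STAT genes gave 0 calls among 7 tested by limma, 2 of them higher at an unadjusted p under 0.05 and 0 by voom, with a median log2 change of 0.20. The nearest to the threshold was Jak3, known from lymphoid cells, at 19.9 ± 0.999 and 29.3 ± 6.39 RPKM (log2 change 0.53, limma adjusted p = 0.0738). Stat5a, which lies 1636 bases from Stat3, stood at 3.85 ± 0.637 and 5.37 ± 0.753 RPKM (0.43, adjusted p = 0.136), and Tyk2 and Stat2 had log2 changes of 0.20 and 0.23. That Stat3 passed and these did not is not a test of their difference.

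Negative regulators were higher in 3 of 16 cases, with a median log2 change of 0.15. Socs3, the inhibitor that STAT3 induces and that binds gp130, stood at 8.10, 7.75 and 9.35 RPKM in controls and at 20.6, 28.8 and 32.1 RPKM in knockouts, a 3.23-fold rise kept in all 15 alternatives (log2 change 1.62, SE 0.18, limma adjusted p = 3.37e-03). Socs2, an inhibitor of growth hormone signalling, rose 2.42-fold, and Ptpn6, a phosphatase abundant in blood cells, rose 2.21-fold. Both lost the call without knockout replicate 2, when the count was 1, and with the replicate block, and Socs2 lost it in 7 of 15 alternatives in all. Socs4 had a log2 change of 0.69 and did not pass (adjusted p = 0.0995).

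Genes known as STAT3 targets were higher in 8 of 18 cases, with a median log2 change of 0.70. They were Lcn2 (log2 change 6.73), Fgg (6.32), Fga (4.94), Fgb (4.58), Timp1 (3.50), Myc (2.41), Bcl3 (2.23) and Icam1 (1.94). The first 4 encode the injury marker NGAL and the 3 fibrinogen chains, which lie in 1 gene cluster. Fgb passed the filter only through its knockout libraries (means of 0.0853 and 15.3 RPKM). The pseudocount holds down log2 changes from such low levels. By mean RPKM the order was another, with folds of 189 for Lcn2, 179 for Fgb, 169 for Fgg and 52.5 for Fga. The other 10 (among them Junb, Fos, Pim1, Cebpb, Cebpd, Mcl1, Lrg1 and Hp) did not pass. These genes were listed with their earlier results known and have other inducers, so their count does not measure STAT3 activity.

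**Figure D4:**
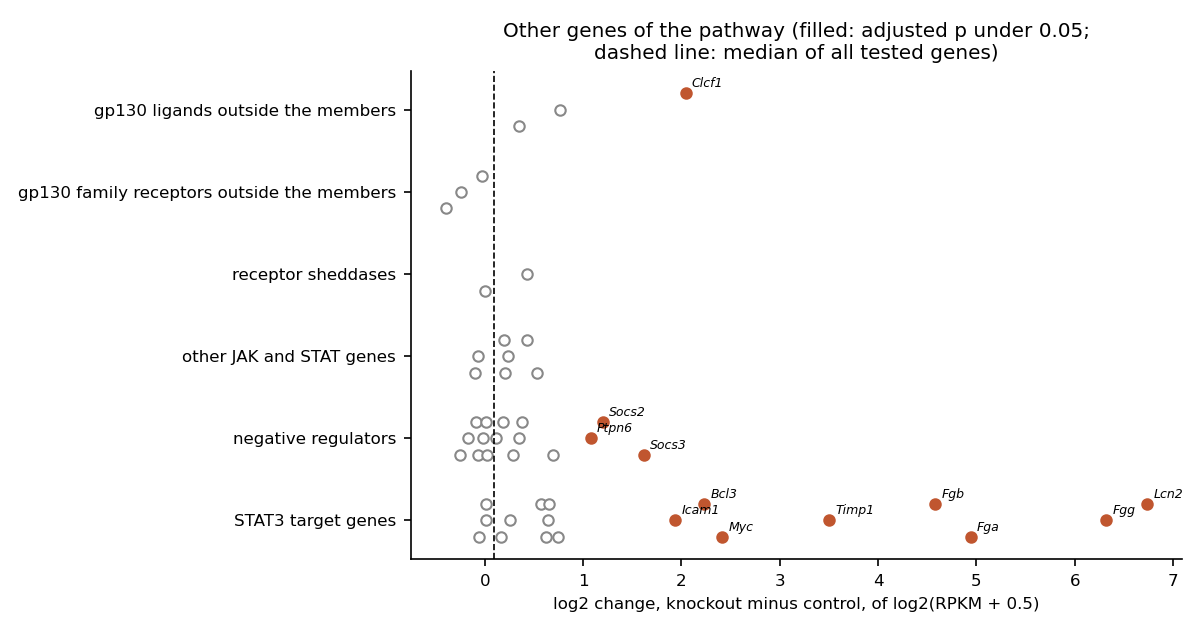
Log2 change (knockout minus control, on the log2(RPKM + 0.5) scale) of each tested gene in the 6 other lists of the pathway; filled, named points passed at an adjusted p of 0.05, and the dashed line is the median of all tested genes, 0.097. The filled points lie among ligands (Clcf1), negative regulators (Socs2, Socs3, Ptpn6) and STAT3 targets, and none among receptors, sheddases or other JAK and STAT genes.

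Most of the tested genes beside the set on the chromosome did not pass, where 13.5% of all tested genes passed in either direction. Rictor (next to Osmr), Egflam (next to Lifr), She and Atp8b2 (on either side of Il6ra), Insl6 (next to Jak2) and Stat5a (next to Stat3) had log2 changes of 0.0026, 0.41, −0.040, −0.083, 0.37 and 0.43, none of them called. Besides Raver2, described above, the gene outside the set that passed was Tyms, the thymidylate synthase gene 18570 bases from Il6, which went from 1.96 ± 0.382 to 3.64 ± 0.472 RPKM (log2 change 0.76, limma adjusted p = 0.0379) and lost the call in 11 of 15 alternatives.

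By likeness of log2 values over the 6 libraries, the closest of 13903 other genes to Stat3 were Psd4, Ptpn7 and Cgn (Pearson r of 0.999, 0.999 and 0.998). The closest to Osmr were Gpm6b, Pml and Espl1 (r of 0.998, 0.997 and 0.992). With 3 libraries in each of 2 groups such values mainly follow the group difference and are a description. Psd4, Ptpn7, Cgn and Espl1 were called higher (log2 changes of 1.48, 1.19, 1.74 and 1.06), and Gpm6b and Pml were not (0.64 and 0.39). Psd4 and Ptpn7 passed the filter through their knockout libraries, and the calls of Ptpn7 and Espl1 were lost in 5 and 10 of 14 alternatives.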

How the data were processed

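RNA was sequenced from isolated glomeruli in 3 control and 3 knockout libraries, grouped by their titles. The authors deposited 1 table of RPKM values per gene and library, made with FastQC, STAR, featureCounts and edgeR on mm10, per the submitters' processing notes, with versions, annotation and strand setting not given in the sources used here. Of 24062 rows, 27 carry a date in place of a symbol and were left out. All 19495 rows above 0 came out as whole reads within 0.001 read (largest deviation 9.90e-10), which gave reads and depths of 38936993 to 58272424; a recovered length may be a fraction of the true one, and its reads the same fraction.

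The 13912 genes whose mean reached 0.5 RPKM were tested with limma 3.58.1 in R 4.3.3 on log2(RPKM + 0.5), which understates changes of low genes, with a mean-variance trend and Benjamini-Hochberg adjustment over all of them. Log2 changes are knockout minus control, and folds are ratios of mean RPKM. The limma step was checked on simulated reads with known changes. Receptor ratios and Il6 had exact permutation tests; Il6 reads had an exact conditional binomial interval. Alternatives changed the pseudocount (0.1 or 1), the filter (none or 2 RPKM), the scaling (quantile, median of ratios), the trend, the model (voom on recovered reads), the replicate number as a block, or left out 1 library.

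The genes named were the 10 genes of the set, Klf4, the 4 of each pathway list with the smallest p, the 2 of each marker list with the highest mean, the neighbours on the chromosome, and the 3 genes most like Stat3 and Osmr; other names were chosen after their values were seen. The members and lists were chosen with earlier results of these data known. Positions and promoters are RefSeq's for GRCm38.p6, the build called mm10. Adgre1 and Ly6g of the leukocyte list were not analysed here, and some other genes of these lists are not reported here.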

Additional observations from a re-analysis of the deposited data

How the results depend on the processing

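The 9 tested genes kept the sign of their log2 change in all alternatives run, except Osm, Jak1 and Jak2, whose changes were not called. Il6 entered only the alternative with no filter, so its change was not tried under the others. Over all tested genes the median log2 change was 0.097 as reported, −0.019 under median-of-ratios scaling and −0.048 under quantile normalization. The count of higher genes in the set was 3 as reported. It was 1 with a filter at 2 RPKM, which removes Lif and under which Osmr lost its call (limma adjusted p = 0.0542). It was 0 to 2 without 1 library, 0 without knockout replicate 2. The count of lower genes was 1 as reported, 0 with no filter, a filter at 2 RPKM, quantile normalization, no trend, voom or the replicate block, and 0 to 2 without 1 library, 2 without knockout replicate 3. Over all genes, 1389 were higher and 484 lower as reported. The higher count was 841 with a filter at 2 RPKM and 849 under quantile normalization, and the lower count 798 under quantile normalization and 744 under median-of-ratios scaling. Without 1 library 526 to 1536 were higher and 127 to 619 lower. The labels do not say whether replicate numbers pair the libraries. Deviations of same-numbered libraries from their group means correlated at 0.175, −0.215 and −0.461 across genes. Those of differently numbered libraries correlated at −0.381 to 0.504. With 3 libraries per group these values cannot settle whether the libraries are paired. With the replicate block 632 genes were higher and 179 lower, and Stat3 and Lifr lost their calls (limma adjusted p = 0.0931 and 0.114) while Lif and Osmr kept theirs. The 12 higher genes of the pathway lists became 10 to 14. The receptor ratios moved by less than 1 SD in every alternative run. Where no cause is named, the cause was not tested. Depth limits Il6, with 0 to 1 read in controls.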
